A study of Mus musculus with 12 samples.

Results

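The integrin and laminin genes of U2OS cells, a human osteosarcoma line, were described across 12 RNA-Seq libraries. They were taken by their annotation, as the protein-coding genes whose full name starts with "integrin subunit" or "laminin subunit". This rule gave 42 of 58735 listed genes: 18 integrin alpha subunits, 8 integrin beta subunits, 12 laminin chains, and ITGB1BP1, ITGB1BP2, ITGB3BP and ITGBL1, which are named after an integrin but are not receptor subunits. The libraries formed 4 groups of 3: blank cells, cells given the siRNA siSRSF1-2, cells given the siRNA siSRSF1-3, and U2OS in which LINC01134, a long non-coding RNA, was overexpressed (OE-LINC01134). All groups share the U2OS background, and the labels name no clone, vector, promoter, siRNA dose or harvest time. No library of cells given a control siRNA or an empty vector was analysed here, so the effect of transfection and that of the siRNA or transgene cannot be told apart. Both siRNAs target SRSF1, a splicing factor that binds RNA.

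Integrins are receptors of the cell surface, each made of 1 alpha and 1 beta subunit, that bind the extracellular matrix outside the cell and the actin skeleton, through adaptor proteins, inside it. The alpha subunit largely sets the ligand, while ITGB1 is shared by many alpha subunits. Laminins are the main glycoproteins of basement membranes. Each is a trimer of an alpha, a beta and a gamma chain, and the integrins with ITGA3, ITGA6 or ITGA7 are their chief integrin receptors. In bone tumour cells, as in other mesenchymal cells, these genes serve adhesion to matrix and migration.

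The deposited values are FPKM, the fragments of a gene divided by its length and by a size factor of the library. They allow levels of different genes to be compared per length. From 26237763 to 32954539 reads per library fell on genes. The size factor was 0.712 and 0.888 times these reads in siSRSF1-3 replicates 1 and 2, and 0.990 to 1.085 times in the other libraries. The FPKM of those replicates summed to 611084 and 410612, against 281051 to 324607 elsewhere. The labels do not say whether the replicates were separate cultures, and the methods of the study speak of fewer biological replicates per condition than there are libraries here, so p-values measure the spread between these libraries, which may be technical. Some libraries stood apart from the others of their group. The ratio of the variance between 2 libraries to that of read counting was 2.13 for blank replicates 2 and 3 and 1.88 for OE-LINC01134 replicates 1 and 3, but 16.8 and 17.6 between blank replicate 1 and the other blank libraries, and 17.8 and 18.3 between OE-LINC01134 replicate 2 and the others of its group. It was 2.15 to 2.45 among the siSRSF1-2 libraries and 13.7 to 46.0 among the siSRSF1-3 libraries. Some libraries were closer to another group than to their own. OE-LINC01134 replicate 2 and blank replicate 1 had a ratio of 10.6 to each other, and siSRSF1-3 replicate 3 had ratios of 8.99 to 10.6 to the siSRSF1-2 libraries, against 24.7 and 46.0 to the other libraries of its own group. The labels name no batch, and the part of sample handling in these likenesses was not tested. Results that rest on these libraries are given with and without them. In siSRSF1-3 replicates 1 and 2, genes of 6 kb or more had a median log2 difference from the blank mean of -0.35 and -0.28, against 0.01 in replicate 3. The 26 genes tested here had a median length of 6813 bases, against 3701 bases for all 17538 genes tested. Of the markers of mesenchymal and osteoblast cells, VIM, COL1A1, SPARC, RUNX2 and ALPL were present, while COL1A2, SP7 and BGLAP did not exceed 0.0131, 0.107 and 0.384 FPKM.

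SRSF1 stood at 35.9, 19.8 and 20.5 FPKM in blank replicates 1 to 3, at 7.09, 7.46 and 7.41 FPKM with siSRSF1-2, and at 3.33, 6.81 and 7.90 FPKM with siSRSF1-3. Every siRNA library was below every blank library. The log2 fold change was -1.72 with siSRSF1-2 (SE 0.232, adjusted p = 0.0050) and -2.09 with siSRSF1-3 (SE 0.385, adjusted p = 0.0518) by limma with Benjamini-Hochberg adjustment over all genes tested. LINC01134 was at 891, 1279 and 878 FPKM in the OE-LINC01134 libraries and at 0.497 to 0.791 FPKM in the blank libraries. The exact two-sided permutation p was 0.1 for each of these 3 comparisons, the smallest that 3 against 3 libraries can give.

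In blank cells the most abundant of these genes was ITGB1, the beta subunit shared by the collagen, fibronectin and many laminin receptors, at 160.2 ± 13.8 FPKM (SD, n = 3). LAMB3, a laminin beta chain best known from epithelial basement membrane, followed at 92.6 ± 20.9 FPKM, then ITGB5 (87.3 ± 2.46 FPKM), a vitronectin receptor subunit that pairs with ITGAV, and ITGA3 (84.8 ± 8.15 FPKM), a laminin receptor subunit. These last 3 levels overlapped, since LAMB3 ranged from 68.4 to 105 FPKM over the blank libraries. Next came LAMB1 (39.8 ± 1.36 FPKM) and LAMC1 (37.1 ± 1.98 FPKM), the beta and gamma chains of the most widespread laminins, and ITGA5 (31.5 ± 3.97 FPKM), the alpha subunit of the main fibronectin receptor. ITGAV, LAMA1, ITGA2, LAMB2 and ITGA6 had blank means between 14.4 and 22.9 FPKM. In all, 14 of the 42 genes had a blank mean of at least 10 FPKM and 24 of at least 1 FPKM. The partners of some complexes were at unlike levels: LAMA3, the alpha chain that joins LAMB3 in the laminin of epithelial anchoring sites, did not exceed 0.267 FPKM in any of the 12 libraries, and ITGB4, the other beta partner of ITGA6, was at 1.21 ± 0.0921 FPKM in blank cells.

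**Figure D1:**
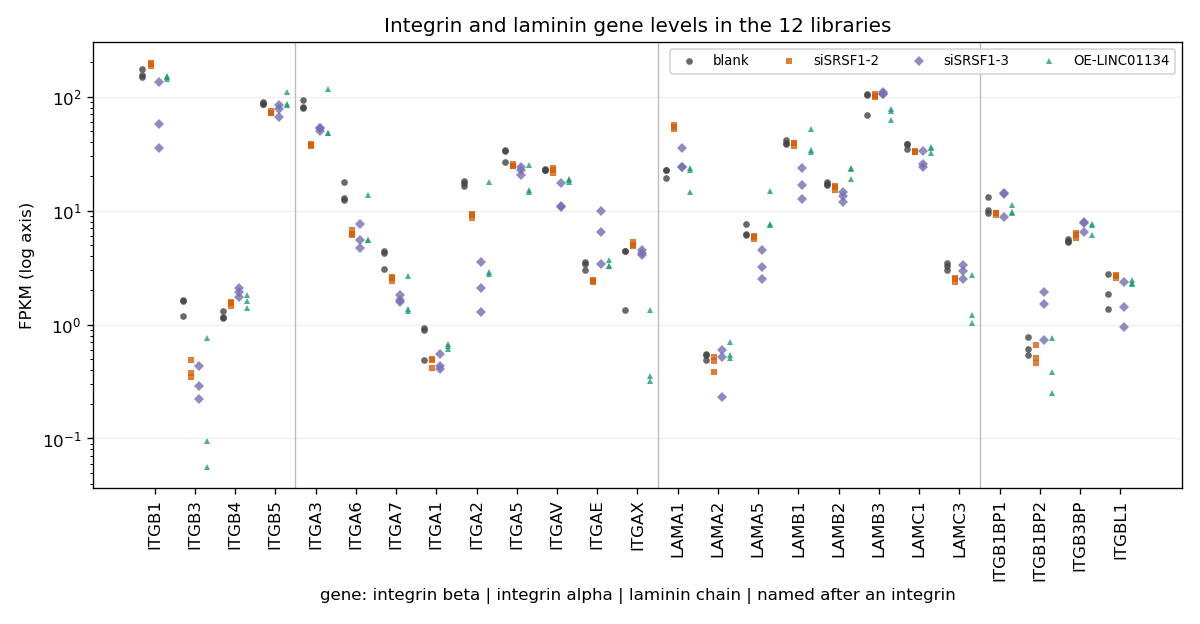
FPKM (log axis) of 25 of the tested genes in each of the 12 libraries, by group: every point is 1 library. ITGB1 lies between 35.7 and 199 FPKM and ITGB3 under 2 FPKM throughout, and the points of OE-LINC01134 are split for ITGA2, which is at 2.87 and 2.79 FPKM in replicates 1 and 3 and at 17.9 FPKM in replicate 2.

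Of the 42 genes, 16 had a mean under 0.5 FPKM over the 12 libraries and were not tested. ITGB8, a receptor subunit for latent TGF-beta, reached 1.58 FPKM in blank replicate 1, and ITGA4, a receptor subunit for fibronectin and VCAM1, reached 1.17 FPKM. The leukocyte subunits ITGAM, ITGB2, ITGAD, ITGB7 and ITGAL had highest values of 0.648, 0.498, 0.218, 0.0341 and 0.0217 FPKM. The collagen receptor subunits ITGA10 and ITGA11 reached 0.319 and 0.110 FPKM, the platelet fibrinogen receptor subunit ITGA2B 0.311 FPKM, ITGA9 0.209 FPKM, ITGB6 0.104 FPKM and ITGA8 0.0748 FPKM. The laminin chains LAMA4, LAMA3 and LAMB4 reached 0.538, 0.267 and 0.0313 FPKM. At these levels differences between groups rest on few reads for most of these genes. ITGB8 had 662, 189 and 192 reads in blank cells, 125, 152 and 171 with siSRSF1-2, and 42, 43 and 79 with siSRSF1-3. In FPKM its siRNA libraries were all below its blank libraries. LAMA4 had 123, 163 and 178 reads in blank cells and 59, 29 and 61 with siSRSF1-3, also without overlap in FPKM. ITGA4 was at 1.12, 1.17 and 1.12 FPKM in blank cells (244, 262 and 289 reads), 0.256, 0.257 and 0.243 FPKM with siSRSF1-2 (58, 60 and 68 reads), 0.0904, 0.249 and 0.235 FPKM with siSRSF1-3 (14, 50 and 58 reads), and 0.0568, 0.176 and 0.0354 FPKM with OE-LINC01134 (13, 38 and 8 reads). For ITGA4 every library of the other 3 groups was thus below every blank library. When genes were not filtered by level, the log2 fold change of ITGA4 was -1.81 with siSRSF1-2 (SE 0.120, limma adjusted p = 0.00376), -2.13 with siSRSF1-3 (SE 0.318, limma adjusted p = 0.0820) and -2.77 with OE-LINC01134 (SE 0.335, limma adjusted p = 0.0694).

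With siSRSF1-2, the laminin receptor subunits ITGA3 and ITGA6 and the vitronectin receptor subunit ITGB3 fell, and the laminin alpha chain LAMA1 rose. To pass, a gene needed a log2 fold change over 1 in either direction beside an adjusted p under 0.05. Of 26 genes tested, 1 was higher and 3 were lower, where 2.22% and 2.73% of all tested genes were higher and lower. With every library scaled to the same FPKM sum, these counts stayed at 1 and 3, while those of all genes moved from 389 higher and 479 lower to 604 and 340. The 3 groups compared with blank cells share the same blank libraries. In bulk RNA, fewer cells with a gene active and less of its RNA per cell cannot be told apart.

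ITGA3 (ENSG00000005884, chromosome 17, 50055968 to 50090481 in the coordinates of the files, whose human build is not given in the sources used here) was at 94.1, 81.4 and 78.9 FPKM in blank cells and at 37.6, 38.3 and 36.8 FPKM with siSRSF1-2. The groups did not overlap, and the log2 fold change was -1.17 (SE 0.0795, limma adjusted p = 0.00105). ITGA6 (ENSG00000091409, chromosome 2, 172427354 to 172506282) was at 17.9, 12.5 and 12.8 FPKM in blank cells and at 6.70, 6.14 and 6.28 FPKM with siSRSF1-2. This difference of -1.15 on the log2 scale (SE 0.149, limma adjusted p = 0.00454) was -0.98, under the fold threshold, without blank replicate 1, the library with the highest value. ITGB3 (ENSG00000259207, chromosome 17, 47253846 to 47311816), which pairs with ITGAV, was at 1.20, 1.59 and 1.63 FPKM in blank cells and at 0.483, 0.378 and 0.347 FPKM with siSRSF1-2. Its log2 fold change was -1.64 (SE 0.205, limma adjusted p = 0.00401), at 146 to 234 reads per blank library and 49 to 61 reads per siSRSF1-2 library. LAMA1 (ENSG00000101680, chromosome 18, 6941744 to 7117814), the alpha chain of the laminin of early basement membranes, was at 19.3, 22.5 and 22.6 FPKM in blank cells and at 52.1, 54.4 and 55.9 FPKM with siSRSF1-2. It was thus higher in 3 of 3 libraries, with a log2 fold change of 1.33 (SE 0.0802, limma adjusted p = 0.000902).

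Smaller differences also passed the test on p alone with siSRSF1-2, whose libraries lay close together. With no minimum fold, 2 genes were higher and 9 were lower, 11 of 26, against 26.8% of all tested genes in either direction. ITGA2, the alpha subunit of a collagen receptor, was among them at 8.65, 9.21 and 9.37 FPKM, against 16.4, 18.1 and 17.5 FPKM in blank cells (log2 fold change -0.93, SE 0.0692, limma adjusted p = 0.00121). ITGB1 was higher, at 186, 194 and 199 FPKM against 176, 150.3 and 154 FPKM (log2 fold change 0.27, SE 0.0763, limma adjusted p = 0.0456). ITGB5 was lower at 71.5, 74.7 and 71.3 FPKM against 90.1, 85.8 and 85.9 FPKM (log2 fold change -0.27, limma adjusted p = 0.0152). Also lower were ITGA7, ITGAE and LAMC3, with log2 fold changes from -0.59 to -0.39. LAMB1, LAMB3, LAMC1 and ITGA5 did not pass: LAMB1 was at 37.0, 39.5 and 39.2 FPKM, LAMB3 at 99.7, 106 and 102 FPKM, LAMC1 at 32.4, 33.2 and 32.7 FPKM, and ITGA5 at 24.8, 24.6 and 25.5 FPKM. Of these, LAMC1 and ITGA5 were below all blank libraries, while LAMB1 and LAMB3 overlapped the blank range. The libraries of the groups did not overlap for 19 of the 26 genes (5 higher, 14 lower), against 49.5% of all tested genes. The median log2 fold change of the 26 genes was -0.19, against 0.02 for all genes tested. VIM, a mesenchymal marker, also fell with siSRSF1-2, with a log2 fold change of -1.39, and its part in these results was not tested. ALPL, another marker of this lineage, fell with OE-LINC01134 (log2 fold change -1.91), and its part was likewise not tested.

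With siSRSF1-3, only ITGA2 passed the test against blank cells. It was the largest difference of the 26 genes in this comparison. Of the 26, 0 were higher and 1 was lower by limma, where 0.331% and 0.929% of all tested genes were higher and lower. ITGA2 (ENSG00000164171, chromosome 5, 52989326 to 53094779) was at 1.28, 2.09 and 3.55 FPKM with siSRSF1-3, against 16.4, 18.1 and 17.5 FPKM in blank cells. No library came near the blank range, and the log2 fold change was -2.97 (SE 0.343, limma adjusted p = 0.0356). The neighbouring collagen receptor gene ITGA1, whose start lies upstream with a gap of 30115 bases between both genes, was at 0.464 ± 0.0751 FPKM with siSRSF1-3 and 0.768 ± 0.243 FPKM in blank cells, and did not pass. The call of ITGA2 was lost when blank replicate 1, 2 or 3 or siSRSF1-3 replicate 2 was left out. Its limma adjusted p was then 0.0831, 0.195, 0.198 and 0.219. This loss was not particular to ITGA2. Of all 17538 genes, 29 passed in either direction once blank replicate 1 was omitted. The total was 0 after omitting blank replicate 2, blank replicate 3 or siSRSF1-3 replicate 2. ITGA2 had log2 fold changes from -3.33 to -2.63 over the omissions of single libraries.

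Several further genes were over the fold threshold without passing on the adjusted p. With the unadjusted p, 6 of 26 were past the threshold and all 6 were lower, against 14.8% of all tested genes in either direction. These were ITGA2, ITGB3 (log2 fold change -1.95, limma adjusted p = 0.0505), ITGA7 (-1.16, 0.0522), ITGA6 (-1.27, 0.0550), LAMB1 (-1.22, 0.0606) and ITGB1 (-1.29, 0.137). ITGB3 was at 0.221, 0.286 and 0.431 FPKM, and ITGA6 was at 5.57, 4.70 and 7.59 FPKM. In both genes every siSRSF1-3 library was below every blank library.

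ITGB1 (ENSG00000150093, chromosome 10, 32900319 to 33005792) varied most between the siSRSF1-3 libraries among the abundant genes, at 35.7, 57.5 and 136 FPKM in replicates 1 to 3. LAMB1 (ENSG00000091136, chromosome 7, 107923799 to 108003255) was at 12.5, 16.9 and 23.5 FPKM, against 41.3, 39.5 and 38.7 FPKM in blank cells. All siSRSF1-3 libraries were below the blank libraries for both genes, and replicate 3 was the nearest to them. LAMC1, at 24.3, 25.5 and 33.7 FPKM against 34.8, 38.3 and 38.3 FPKM, and ITGAV, at 10.7, 11.1 and 17.4 FPKM against 23.2, 22.8 and 22.7 FPKM, were also nearest to the blank libraries in replicate 3. Without siSRSF1-3 replicate 3, 8 genes were lower (ITGA2, ITGA6, ITGA7, ITGAV, ITGB1, ITGB3, LAMA5 and LAMB1) and 2 were higher (ITGAE and ITGB1BP2), where 11.4% and 12.5% of all tested genes were lower and higher. Replicates 1 and 2 were the libraries in which long genes were low: the 22 of the 26 genes of 6 kb or more had a median log2 difference from the blank mean of -0.67, -0.57 and -0.37 in siSRSF1-3 replicates 1 to 3, and the other 4 genes one of 0.38, 0.40 and 0.20. With a trend on gene length removed from each library (a setting added once the data had been seen), 2 genes were lower (ITGA2 and ITGB3), where 1.24% of all tested genes were lower, and the median of the 26 genes was -0.22 in place of -0.40. The median of all genes tested was -0.01, and 0.05 with the length trend removed. With that trend removed, ITGB1, LAMB1, ITGA6 and ITGA7 had log2 fold changes of -1.17, -1.01, -1.13 and -1.02 and did not pass. ITGAV and LAMA5 had -0.64 and -0.65. The part of gene length in these differences was not tested.

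LAMB3, LAMA1, ITGB5, ITGA3 and ITGA5 had log2 fold changes under 1 in size with siSRSF1-3 and did not pass. LAMB3 was at 106, 111 and 107 FPKM (log2 fold change 0.24, SE 0.240, limma adjusted p = 0.504), and LAMA1 at 23.9, 24.1 and 35.1 FPKM (0.35, SE 0.213, limma adjusted p = 0.298). ITGB5 was at 77.5, 85.3 and 65.9 FPKM and ITGA5 at 24.3, 20.6 and 22.5 FPKM. ITGA3 was at 52.7, 50.1 and 53.1 FPKM (log2 fold change -0.70, SE 0.182, limma adjusted p = 0.0860). For these 5 genes the siSRSF1-3 libraries also did not overlap the blank libraries, above them for LAMB3 and LAMA1 and below them for the other 3. Over all 26 genes this held for 18 (4 higher, 14 lower), against 37.2% of all tested genes. The direction of LAMB3 and LAMA1 varied with the scaling of the libraries. Their log2 fold changes were -0.02 and 0.09 with own read totals, and 0.29 and 0.68 with the length trend removed. With every library scaled to the same FPKM sum they were -0.20 and -0.10. The median of all genes then moved from -0.01 to -0.43 and that of the 26 genes from -0.40 to -0.84. Under that scaling 1 gene of all was higher and 0 were lower, in place of 58 and 163, and 11 and 58 when scaled by own read totals. The epithelial markers EPCAM, CDH1, KRT5 and KRT14 summed to 3.03 to 3.24 FPKM with siSRSF1-3 and to 1.74 to 2.45 FPKM in blank cells, with 0 of the 2 tested markers past the threshold, and their part in the level of LAMB3 was not tested.

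**Figure D2:**
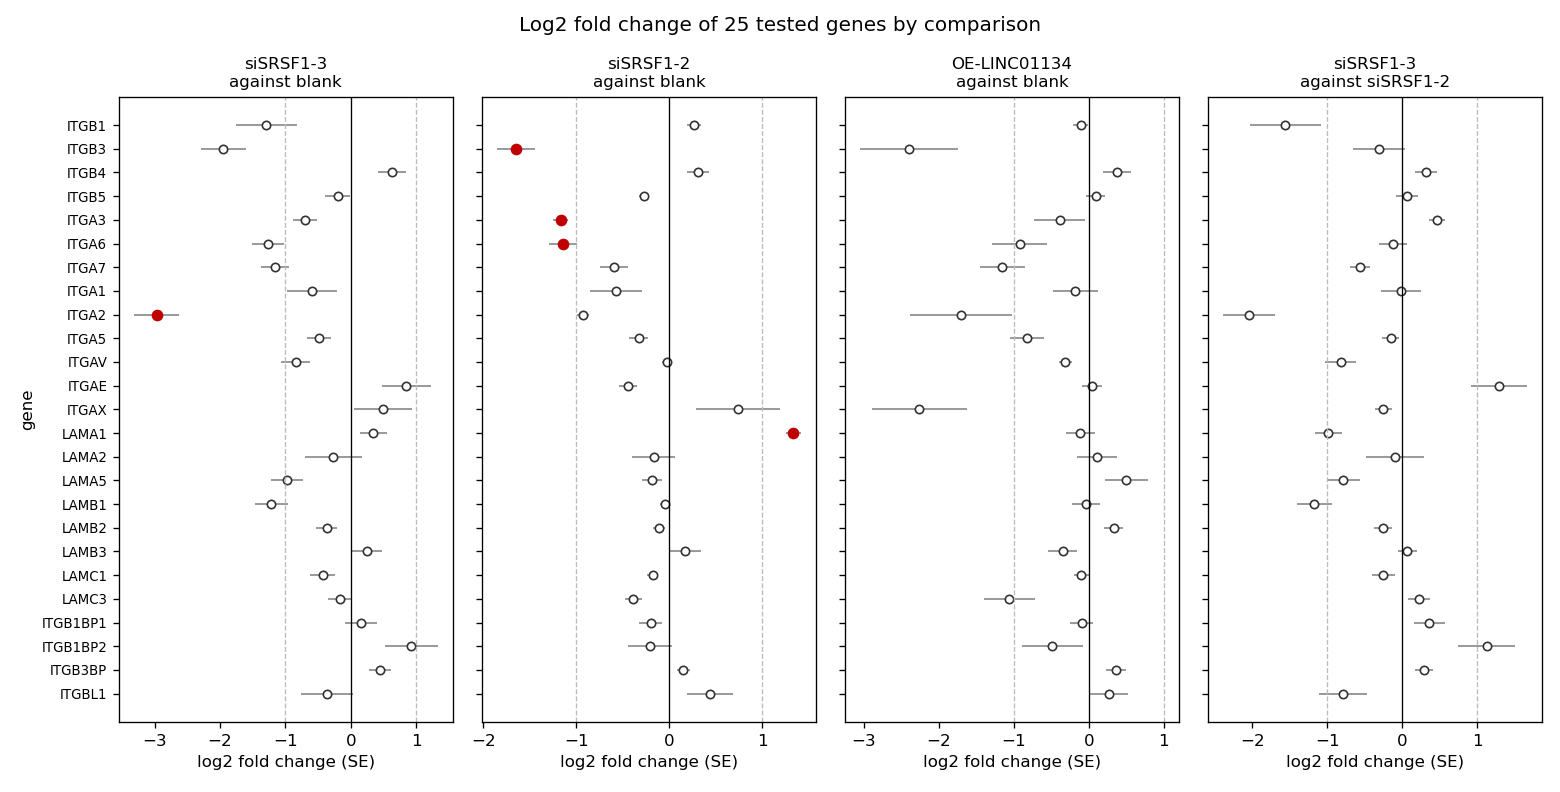
Log2 fold change on the log2(FPKM + 0.1) scale with its standard error (bars) for 25 of the tested genes in the 4 comparisons. Filled points passed the threshold, which 1 gene did with siSRSF1-3 and 4 genes did with siSRSF1-2, and dashed lines mark a log2 fold change of 1 in either direction.

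The 2 siRNAs were also compared with each other, which shows where the knockdowns differ. None of the 26 genes passed in this direct comparison by limma (0 higher, 0 lower), where 0.0342% and 0.0513% of all tested genes were higher and lower with siSRSF1-3. By voom on the recovered reads the count was also 0, where 57 of all genes were higher and 61 lower. With the unadjusted p 5 genes were past the threshold (2 higher, 3 lower), against 16.4% of all tested genes in either direction. The lower genes were ITGA2 (log2 fold change -2.04, SE 0.345, limma adjusted p = 0.0712), LAMB1 (-1.17, SE 0.233, adjusted p = 0.0729) and ITGB1 (-1.56, SE 0.474, adjusted p = 0.0850). Higher were ITGAE, a subunit of a lymphocyte receptor for E-cadherin (1.29, SE 0.374, adjusted p = 0.0834), and ITGB1BP2, a muscle protein that binds ITGB1 (1.13, SE 0.381, adjusted p = 0.0923). ITGAE was at 9.94, 6.45 and 3.39 FPKM with siSRSF1-3 and at 2.44, 2.38 and 2.40 FPKM with siSRSF1-2. For LAMA1 the difference was -0.99 (SE 0.180, adjusted p = 0.0725), with all siSRSF1-3 libraries below all siSRSF1-2 libraries. ITGB1 was above blank cells with siSRSF1-2 and below them with siSRSF1-3 in 3 of 3 libraries each, and the difference between the siRNAs did not pass. Without siSRSF1-3 replicate 3, 2 genes were higher (ITGAE and ITGB1BP2) and 7 were lower (ITGA2, ITGAV, ITGB1, ITGBL1, LAMA1, LAMA5 and LAMB1), and 30.6% of all tested genes were past the threshold in either direction, a share near that of these 9 among the 26. The groups did not overlap for 16 genes (5 higher, 11 lower), against 54.6% of all tested genes, and the median log2 fold change was -0.20, against -0.02 for all genes tested. It was 0.04 with the length trend removed and -0.72 with all libraries scaled to the same FPKM sum, where the median of all genes was -0.57 and the calls over all genes were 1 higher and 7 lower in place of 6 and 9.

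With OE-LINC01134, no gene passed the test against blank cells, and the 3 libraries disagreed. By limma 0 of 26 were higher and 0 lower, where 0.257% and 0.593% of all tested genes were higher and lower. Voom on the recovered reads also gave 0, where 69 of all genes were higher and 237 lower. Over all genes 45 were higher and 104 lower by limma, and 83 and 103 with all libraries scaled to the same FPKM sum. With the unadjusted p 6 genes were past the threshold, all 6 lower, against 7.45% of all tested genes in either direction. They included ITGB3 (log2 fold change -2.39, limma adjusted p = 0.0939), ITGAX (-2.26, 0.0978), ITGA2 (-1.70, 0.175), ITGA7 (-1.15, 0.0886) and LAMC3 (-1.06, 0.121).

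In ITGA2, ITGA6, ITGB3 and ITGAX, OE-LINC01134 replicates 1 and 3 were alike and replicate 2 was nearer to blank cells. ITGA2 was at 2.87, 17.9 and 2.79 FPKM in replicates 1 to 3, ITGA6 at 5.49, 13.7 and 5.47 FPKM, and ITGA3 at 48.2, 116 and 48.4 FPKM. The blank libraries held 16.4 to 18.1, 12.5 to 17.9 and 78.9 to 94.1 FPKM of these genes, so that replicate 2 was within or above the blank range and the others were below it. ITGB3 was at 0.0942, 0.766 and 0.0557 FPKM, on 12, 92 and 7 reads. ITGAX, a leukocyte receptor subunit, was at 0.351, 1.34 and 0.321 FPKM against 1.35, 4.45 and 4.45 FPKM. In these last 2 genes all OE-LINC01134 libraries were below all blank libraries. ITGAX in replicate 2 stood close to blank replicate 1. The leukocyte markers PTPRC, CD3E, CD79A, CD14 and LYZ summed to 0.0947 to 0.431 FPKM with OE-LINC01134 and 0.173 to 0.265 FPKM in blank cells, with CD3E at 0 in all 12 libraries. Without OE-LINC01134 replicate 2, 8 of the 26 genes were lower by limma (among them ITGA2, ITGA5, ITGA6, ITGA7, ITGAX, ITGB3 and LAMC3), where 5.87% of all tested genes were lower. Without blank replicate 1 only ITGAX was, where 3.68% of all tested genes were lower.

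ITGB1 and LAMC1 were close to blank levels in the OE-LINC01134 group. ITGB1 was at 149, 143 and 153 FPKM (log2 fold change -0.11, SE 0.103, limma adjusted p = 0.531), and LAMC1 was at 35.6, 32.1 and 36.4 FPKM (-0.10, SE 0.102, limma adjusted p = 0.562). LAMB3 was at 77.7, 62.4 and 75.4 FPKM, against 68.4, 105 and 104 FPKM in blank cells (log2 fold change -0.34, limma adjusted p = 0.298). LAMB1 was at 32.9, 52.2 and 34.0 FPKM, LAMA1 at 22.6, 14.7 and 23.5 FPKM, and ITGB5 at 84.9, 109.9 and 86.6 FPKM. ITGA5 was at 14.5, 24.95 and 15.1 FPKM, below all blank libraries (log2 fold change -0.83, SE 0.227, limma adjusted p = 0.0952). Replicate 2 had the highest value of the group for LAMB1, ITGB5 and ITGA5 and the lowest for LAMB3 and LAMA1, and of these it was farther from the blank mean than replicates 1 and 3 for LAMB1, ITGB5, LAMB3 and LAMA1. The groups did not overlap for 10 of the 26 genes (3 higher, 7 lower), against 30.6% of all tested genes. The median log2 fold change was -0.15, against 0.05 for all genes tested.

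**Figure D3:**
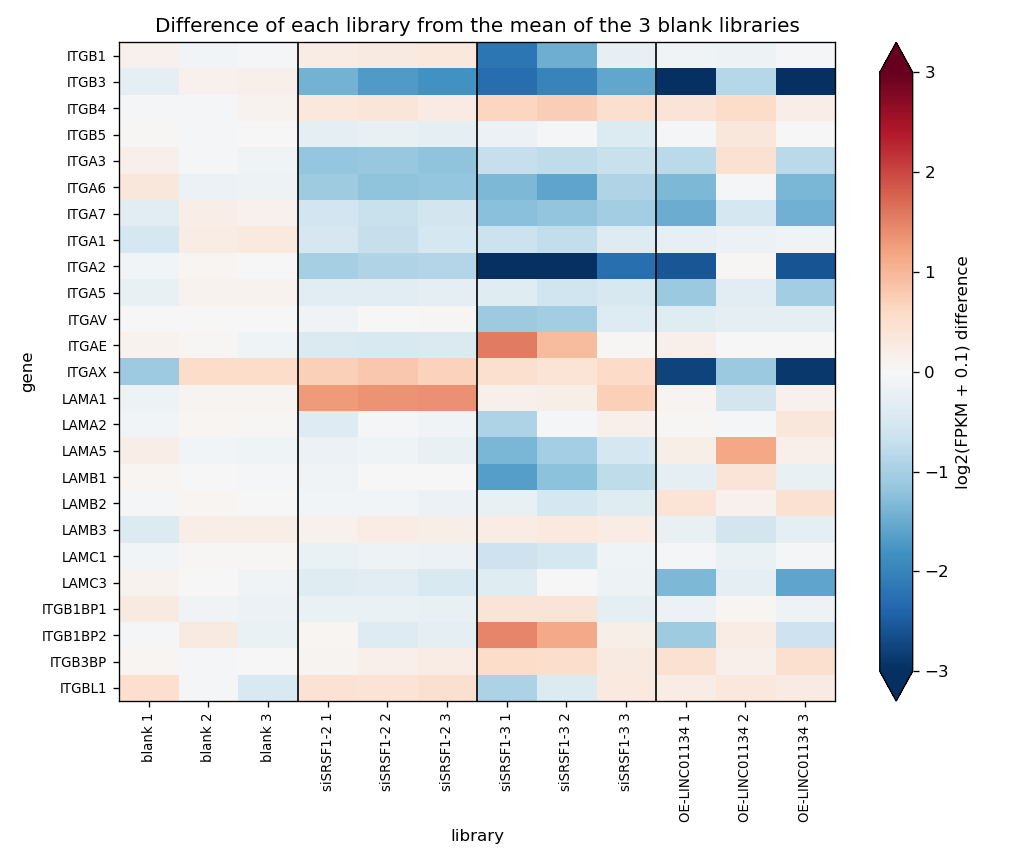
Difference on the log2(FPKM + 0.1) scale of each library from the mean of the 3 blank libraries, for 25 of the tested genes (rows) and 12 libraries (columns), with the colours ending at 3 in either direction. ITGA2 is below the blank mean in all 6 siRNA libraries and in OE-LINC01134 replicates 1 and 3, and LAMA1 is above it in the 6 siRNA libraries.

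The other tested genes did not pass in any of the 4 comparisons by limma. LAMB2, a laminin beta chain of mature basement membranes, had group means between 13.4 and 21.8 FPKM, and LAMA2, the laminin alpha chain of muscle, between 0.447 and 0.581 FPKM. ITGB1BP1, an adaptor that binds the tail of ITGB1, had group means between 9.37 and 12.3 FPKM, ITGB3BP, a centromere protein that also binds ITGB3, between 5.44 and 7.45 FPKM, and ITGBL1, a secreted protein, between 1.58 and 2.64 FPKM. ITGB4 was at 1.15, 1.15 and 1.31 FPKM in blank cells and above all of these values in each of the other 9 libraries. Its log2 fold changes against blank cells were 0.31 with siSRSF1-2, 0.63 with siSRSF1-3 and 0.38 with OE-LINC01134 (limma adjusted p = 0.101, 0.123 and 0.238).

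The proportions of subunits that can pair with each other also differed between groups. These ratios of FPKM are descriptions with no test. ITGB1 over the sum of the 12 alpha subunits that can pair with it was 0.958, 0.854 and 0.895 in blank cells and 1.81, 1.86 and 1.89 with siSRSF1-2. It was 0.368, 0.631 and 1.27 with siSRSF1-3 and 1.63, 0.733 and 1.65 with OE-LINC01134. The siSRSF1-2 libraries were above the blank libraries, and the siSRSF1-3 libraries lay on both sides of them. The sum of alpha subunits was 177 ± 5.71 FPKM in blank cells (SD, n = 3), 104 ± 1.19 FPKM with siSRSF1-2 and 98.4 ± 8.14 FPKM with siSRSF1-3, and did not overlap between blank cells and either siRNA group. With OE-LINC01134 it was 91.2, 195 and 93.0 FPKM in replicates 1 to 3, so a low sum was not particular to the siRNA libraries. ITGA3 made up 47.8% ± 3.03 of this sum in blank cells, 36.1% ± 0.950 with siSRSF1-2 and 53.0% ± 2.97 with siSRSF1-3. ITGA2 made up 9.80% ± 0.757, 8.71% ± 0.264 and 2.31% ± 0.994. In OE-LINC01134 replicates 1 to 3 ITGA3 made up 52.9%, 59.3% and 52.1%, and ITGA2 3.14%, 9.16% and 3.00%.

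Among the laminin alpha chains, LAMA1 held 68.9%, 74.9% and 75.4% of the summed FPKM in blank cells, 88.7%, 88.4% and 89.3% with siSRSF1-2, and 88.7%, 86.0% and 86.5% with siSRSF1-3. The share was higher in all 6 siRNA libraries than in all blank libraries. With siSRSF1-2 LAMA1 was high itself, and with siSRSF1-3 LAMA5, a broadly used laminin alpha chain, was at 2.53, 3.23 and 4.55 FPKM against 7.68, 6.30 and 6.09 FPKM in blank cells. OE-LINC01134 replicate 2 stood apart again, with a LAMA1 share of 47.6% against 72.9% and 73.5% in replicates 1 and 3. The sum of the laminin beta chains was 149.7 ± 19.98 FPKM in blank cells and 139 ± 5.40 FPKM with siSRSF1-3, a difference within the spread of the blank libraries.

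**Figure D4:**
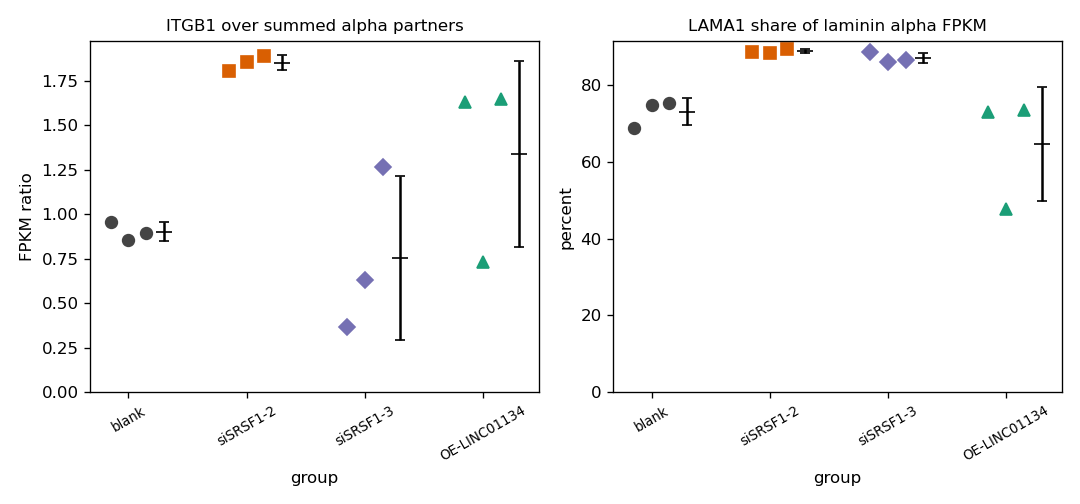
Ratio of ITGB1 to the summed FPKM of its alpha partners and LAMA1 share of the summed laminin alpha FPKM in percent, per library and group, with the mean and SD of 3 libraries beside the points. The siSRSF1-2 libraries lie at 1.81 to 1.89 and 88.4% to 89.3%, each above all blank libraries.

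Genes that work with these receptors and chains were taken from 4 lists. Among all tested genes, 0.331% were higher and 0.929% lower with siSRSF1-3, and 2.22% and 2.73% with siSRSF1-2. With OE-LINC01134 these shares were 0.257% and 0.593%. The median log2 fold change of all tested genes was -0.01 with siSRSF1-3, 0.02 with siSRSF1-2 and 0.05 with OE-LINC01134. Of 41 tested genes of integrin adaptors and signalling (44 listed), 0 were higher and 1 was lower with siSRSF1-3, and likewise with siSRSF1-2. The lower gene was TNS3, a tensin of focal adhesions, with siSRSF1-3 (log2 fold change -1.90, limma adjusted p = 0.0484) and CAV1, the caveolar coat protein, with siSRSF1-2 (-1.84, limma adjusted p = 0.0232). CAV1 in blank replicate 1 was at 45.1 FPKM, against 15.2 and 16.1 FPKM in replicates 2 and 3. With OE-LINC01134, 1 was higher, PTK2B, a kinase related to focal adhesion kinase (1.14, limma adjusted p = 0.0410), and 0 were lower. The median log2 fold change of the list was -0.37 with siSRSF1-3, -0.20 with siSRSF1-2 and -0.20 with OE-LINC01134.

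Of 16 tested genes of the basement membrane other than laminins (22 listed), 0 were higher and 3 were lower with siSRSF1-3, 1 was higher and 2 were lower with siSRSF1-2, and none passed with OE-LINC01134. The shares of all tested genes were 0.331% higher and 0.929% lower with siSRSF1-3, and 2.22% and 2.73% with siSRSF1-2. SMOC1, a calcium-binding matrix protein, and NTN1, a netrin related to laminins, fell with both siRNAs: SMOC1 had log2 fold changes of -1.91 and -1.78 with siSRSF1-3 and siSRSF1-2 (limma adjusted p = 0.0376 and 0.000831), and NTN1 of -1.81 and -1.08 (limma adjusted p = 0.0453 and 0.00105). PXDN, the peroxidase that cross-links collagen IV, fell with siSRSF1-3 (-1.505, limma adjusted p = 0.0456). NID1, the nidogen that links laminin to collagen IV, rose with siSRSF1-2 (1.89, limma adjusted p = 0.00228), from 17.8, 11.7 and 11.02 FPKM to 47.4, 48.9 and 50.8 FPKM. It was at 10.5, 14.2 and 27.5 FPKM with siSRSF1-3, a range that overlapped the blank libraries. The median of the list was -0.92 with siSRSF1-3, -0.27 with siSRSF1-2 and -0.59 with OE-LINC01134.

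Of 18 other laminin receptors and membrane partners of integrins, all tested, 1 was lower with siSRSF1-3 and 2 were lower with siSRSF1-2. Of all tested genes, 0.929% and 2.73% were lower in these comparisons. SDC1, a syndecan, fell with both siRNAs (log2 fold changes -1.49 and -1.87, limma adjusted p = 0.0498 and 0.00242), and MCAM, an adhesion molecule that binds a laminin alpha chain, fell with siSRSF1-2 (-1.11, limma adjusted p = 0.0289). Of 17 tested integrin ligands other than laminins and collagens (28 listed), 2 were lower with siSRSF1-3 and 1 was lower with siSRSF1-2, against the same shares of all tested genes. TGFBI, a secreted ligand of several integrins, fell with both (-2.77 and -2.91, limma adjusted p = 0.0356 and 0.00222), and LTBP1, which holds latent TGF-beta in the matrix, fell with siSRSF1-3 (-1.71, limma adjusted p = 0.0483). No gene of these 2 lists passed with OE-LINC01134, and no gene of the 4 lists passed in the comparison of siSRSF1-3 with siSRSF1-2 by limma. With siSRSF1-3 the medians of these lists were 0.18 and -1.15, with siSRSF1-2 -0.46 and -0.62, and with OE-LINC01134 -0.28 and -0.21.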

How the data were processed

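U2OS RNA was sequenced in 12 libraries, 3 per group, grouped by sample title. The labels and the Results of the study place the sequencing in U2OS, but its methods place transfection in HOS, another osteosarcoma line, and name 2 biological replicates per condition; the labels do not settle this. The authors deposited FPKM per gene with gene lengths. Their aligner and counting program are not given in the sources used here. The labels name mouse and the submitters' processing notes name GRCm38 and mm10, but the deposited identifiers and names are human. FPKM times length gave whole reads for 100% of values (tolerance 0.01). The authors compared groups with DESeq2.

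Here log2(FPKM + 0.1) was fitted with limma 3.58.1 in R 4.3.3 (eBayes with a mean-variance trend) on the 3 + 3 libraries of a comparison, over 17538 genes with a mean of at least 0.5 FPKM. Fold changes are on this scale, which understates changes of low genes. The threshold joined a p under 0.05 after Benjamini-Hochberg adjustment with a log2 fold change over 1 in either direction. The scripts were tested on simulated data with an equal spread in all libraries, unlike the libraries here, which checked the code only. Symbols were matched to files through full names (178 of 178).

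Values per library are given for genes that passed in any comparison or averaged at least 20 FPKM; the rest by group or range. Of lists, at most 5 passing genes per comparison are named. Genes named for an unadjusted p, for calls without a library, or for a complex were chosen after their values were seen. The genes and lists were chosen with earlier results of these data known. Alternatives were other pseudocounts, filters, scalings and fits, voom on recovered reads, the replicate number as a block, and leaving out each library. Whether reads were shared between related genes, such as the neighbours ITGAX, ITGAM and ITGAD, was not tested, so their values are uncertain. Sequences of these genes were not used here, and 1 of the 26 tested genes enters the counts and medians but is not reported here by itself.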

Additional observations from a re-analysis of the deposited data

How the results depend on the processing

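With siSRSF1-3 against blank cells, 1 gene passed as reported. The count was 2 with a pseudocount of 1, without the variance trend or with the gene length trend removed, 5 by voom on the recovered reads, 6 in 1 fit over all 4 groups or with the unadjusted p, and 0 without a filter, with the same FPKM sum in every library, with a replicate block or with close replicates averaged. Of all genes tested, 3.58% passed by voom, 13.8% in 1 fit over all 4 groups and 14.8% with the unadjusted p. With a pseudocount of 1, 107 of all genes were higher and 206 lower. These counts were 32 and 121 without the variance trend, and 124 and 217 with the gene length trend removed. Without a filter 24 of 42596 genes were higher and 92 lower. With the same FPKM sum 1 of all genes was higher and 0 lower. With a replicate block or with close replicates averaged, 0 of all genes were higher and 0 lower. With siSRSF1-2 the 4 genes became 2 in 1 fit over all 4 groups, where 134 of all genes were higher and 180 lower. They became 11 with no minimum fold change, where 2452 of all genes were higher and 2250 lower. Averaging close replicates left this group 1 sample, assumed to vary like the other groups, so that fit cannot decide whether the 4 calls hold. The median log2 fold change of the 26 genes was then -0.21. The count of 0 with OE-LINC01134 became 5 in 1 fit over all 4 groups and 6 with the unadjusted p, and that of siSRSF1-3 against siSRSF1-2 became 4 and 5. Of all genes, 3.93% and 7.45% passed in these fits with OE-LINC01134, and 15.6% and 16.4% between the siRNAs. Leaving out 1 library gave 0 to 10, 3 to 4, 0 to 8 and 0 to 9 genes in these 4 comparisons, and 0 to 4184, 534 to 1188, 1 to 1540 and 0 to 5358 of all 17538 genes tested. The causes of these shifts were not tested, apart from fewer samples or more genes tested by construction.

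The median log2 fold change moved with siSRSF1-3 from -0.40 to -0.66 with own read totals, -0.84 with the same FPKM sum and -0.22 with the length trend removed, with siSRSF1-2 from -0.19 to -0.15, -0.066 and -0.27, and in siSRSF1-3 against siSRSF1-2 from -0.20 to -0.49, -0.72 and 0.040. Without single libraries the medians ranged from -0.53 to -0.38, -0.26 to -0.18, -0.24 to -0.15 (OE-LINC01134) and -0.30 to -0.15. SRSF1 with siSRSF1-3 passed at -1.92 with a pseudocount of 1, at -2.13 by voom, and at -2.09 in 1 fit over all 4 groups or with the unadjusted p, and ranged from -2.33 to -1.72 without single libraries. With siSRSF1-2 it did not pass at -1.86 with close replicates averaged, and ranged from -1.88 to -1.45. LINC01134 ranged from 10.32 to 10.68. Of 437 alternatives for the 21 gene differences over a log2 fold change of 1, none turned the direction, 54 newly passed and 16 no longer passed. These 21 differences were picked for their size in the same data. The settings of the unadjusted p and of no minimum fold change reuse the main fit. These counts are therefore no independent check of the directions or calls. Removing the length trend and averaging close replicates were chosen after the data were seen.

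Between libraries of the same replicate number, the correlations of deviations from the group means were -0.08 to 0.04. With 3 libraries per group, some of them far from the others, these correlations cannot decide whether the libraries were paired. With a replicate block the counts were 0 with siSRSF1-3, 4 with siSRSF1-2 and 0 in the other comparisons. Over all genes tested, 0 were higher and 0 lower with siSRSF1-3 against blank cells and against siSRSF1-2. There were 300 higher and 381 lower with siSRSF1-2, and 1 and 3 with OE-LINC01134. With 3 libraries per group, of which some are nearly alike, the size of a difference that could pass varied between comparisons. Genes with a mean under 0.5 FPKM were not tested, and differences between their low values rest on few reads for most of them.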
